A study of Mus musculus with 360 samples.

Results

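Genes of smooth muscle and of the contractile apparatus were followed in CD51+;CD200+ skeletal stem/progenitor cells of the newborn mouse. They were Acta2, Myl9, Myh11, Tagln, Cnn1, Tpm1, Tpm2, Cav1, Des and Rgs5, which is 10 of the 24015 genes in the count tables. The members were chosen by their reads and by the share of cells that held them in each tissue and plate, as seen in earlier results of these same data. Their levels are therefore given as a description. The cells came from wild type CD-1 mice at postnatal day 3 and were taken from sutures of the skull, the posterior frontal (PF), the sagittal (SAG) and the coronal (COR) one, and from the tibial growth plate (GP). They were sorted as positive for CD51 and CD200 and negative for CD105, 6C3, Tie2, Ter119, CD45, Thy1.2 and Thy1.1, and each was sequenced as a single-cell library on 1 of 2 plates per tissue. No mutation, transgene or treatment set the groups apart. The labels name no animals, so each tissue counted as 1 sample, no test between tissues was possible, and the plates show only how far a value moved between plates.

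Of 360 deposited cells, 325 held at least 500 genes and 10000 reads and were kept: 87 from PF, 86 from SAG, 74 from COR and 78 from GP. Levels are counts per 1000000 reads (CPM), with the reads of the ribosomal RNA gene Rn45s left out of the totals. Plate 2 of SAG stood apart, since Rn45s took 86.8% of its reads against 20.2% to 30.96% on the other 7 plates, and its cells held a median of 875 genes against 2111.5 to 3867. The median cell held 448803 reads other than Rn45s in COR, 369308 in GP, 312083 in PF and 184673 in SAG. Of the markers of other cell types that the sort could have let through, Pecam1 and Tek of endothelium had no read in any of the 325 cells, and Ptprc, the gene of the gated CD45, had reads in 5. The reads carry no molecular identifiers, so the intervals and limits below cover counting error only.

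Smooth muscle cells shorten when myosin motors pull on filaments of smooth muscle actin, which ACTA2 forms and which tropomyosins and calponin line. Pericytes and vascular smooth muscle, together called mural cells, wrap small and large vessels and share much of this apparatus, with MYH11 as the heavy chain of smooth muscle myosin, desmin as an intermediate filament and RGS5 as a regulator of G protein signaling typical of pericytes. Several of these genes are also read in fibroblast-like and bone-forming cells, where actin stress fibers are built. Acta2 alone is therefore a weaker mark of a mural cell than Acta2 together with Myh11, Rgs5 or Des.

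Many genes of this apparatus carry CArG boxes, the binding motif of serum response factor, near their start. In the RefSeq promoter table of build GRCm38.p6, which holds 250 bases before and 50 bases after each start, 8 of the 10 members had an entry. Tagln and Myh11 had none. Acta2 and Myl9, the members that carried most of the reads beside Tpm1, are printed because only they, among the 8, held a CArG box or a CArG-like box with 1 other letter in its A/T core. Capitals mark those boxes, which lie 84 and 34 bases before the start of Acta2 and 161 and 99 bases before that of Myl9. The Acta2 window is chr19:34255324-34255623 on the minus strand and the Myl9 window is chr2:156775214-156775513 on the plus strand.
Acta2: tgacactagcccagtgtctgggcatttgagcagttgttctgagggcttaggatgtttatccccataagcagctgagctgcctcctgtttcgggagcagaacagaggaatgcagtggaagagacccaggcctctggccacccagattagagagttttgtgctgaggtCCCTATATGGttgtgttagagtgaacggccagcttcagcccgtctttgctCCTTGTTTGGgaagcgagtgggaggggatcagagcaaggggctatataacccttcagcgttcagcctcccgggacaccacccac
Myl9: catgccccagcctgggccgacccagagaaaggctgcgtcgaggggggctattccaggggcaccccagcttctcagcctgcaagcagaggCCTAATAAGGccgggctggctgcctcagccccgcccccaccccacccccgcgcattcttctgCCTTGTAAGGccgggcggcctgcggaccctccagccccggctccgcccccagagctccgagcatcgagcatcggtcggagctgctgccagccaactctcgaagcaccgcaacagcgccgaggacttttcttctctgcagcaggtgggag
Only the box of Myl9 farther from the start was a strict CArG box. The pattern is its own reverse complement, so the search of 1 strand covered both. Of all 32851 promoters in that table, 1.63% held a strict box and 9.98% held a strict or CArG-like box. A match of letters is a description and not a bound site. The counts themselves were made on build mm9, where Acta2 spans chr19:34315580-34329826 on the minus strand and Myl9 spans chr2:156601156-156607394 on the plus strand.

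Summed over the 10 genes, GP held 4364 CPM, PF 2455 CPM, COR 1771 CPM and SAG 819 CPM. The plates kept this order, with 4926 and 4246 CPM in GP, 2281 and 2497 CPM in PF, 1366 and 1817 CPM in COR and 596 and 967 CPM in SAG. The sums were made differently in each tissue. In SAG, Tpm1 gave 92.6% of the member reads, against 44.1% in COR, 30.3% in PF and 23.5% in GP. In GP a single cell gave 46.9% of the member reads, and in PF a single cell gave 28.97%. The median cell held 2 of the 10 genes in PF, COR and GP and 1 in SAG.

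Per kilobase of exon, a scaling by gene length, the order of the genes also differed. The length was that of all annotated exons merged, 6485 bases for Tpm1 against 1781 for Acta2 and 1162 for Myl9. The order between genes depends on that choice, and by CPM without it Tpm1 led in PF and COR. In GP, Acta2 led with 917 CPM per kilobase, followed by Myl9 with 778 and Tpm1 with 158. In PF, Myl9 led with 544, followed by Acta2 with 308 and Tpm1 with 115. In COR, Acta2 stood at 243, Myl9 at 187 and Tpm1 at 121 CPM per kilobase. In SAG, Tpm1 stood at 117, and the next genes, Tpm2 and Myl9, at 10.9 and 9.70. Tpm1 thus lay between 115 and 158 CPM per kilobase in all 4 tissues, while the genes above it changed.

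**Figure D1:**
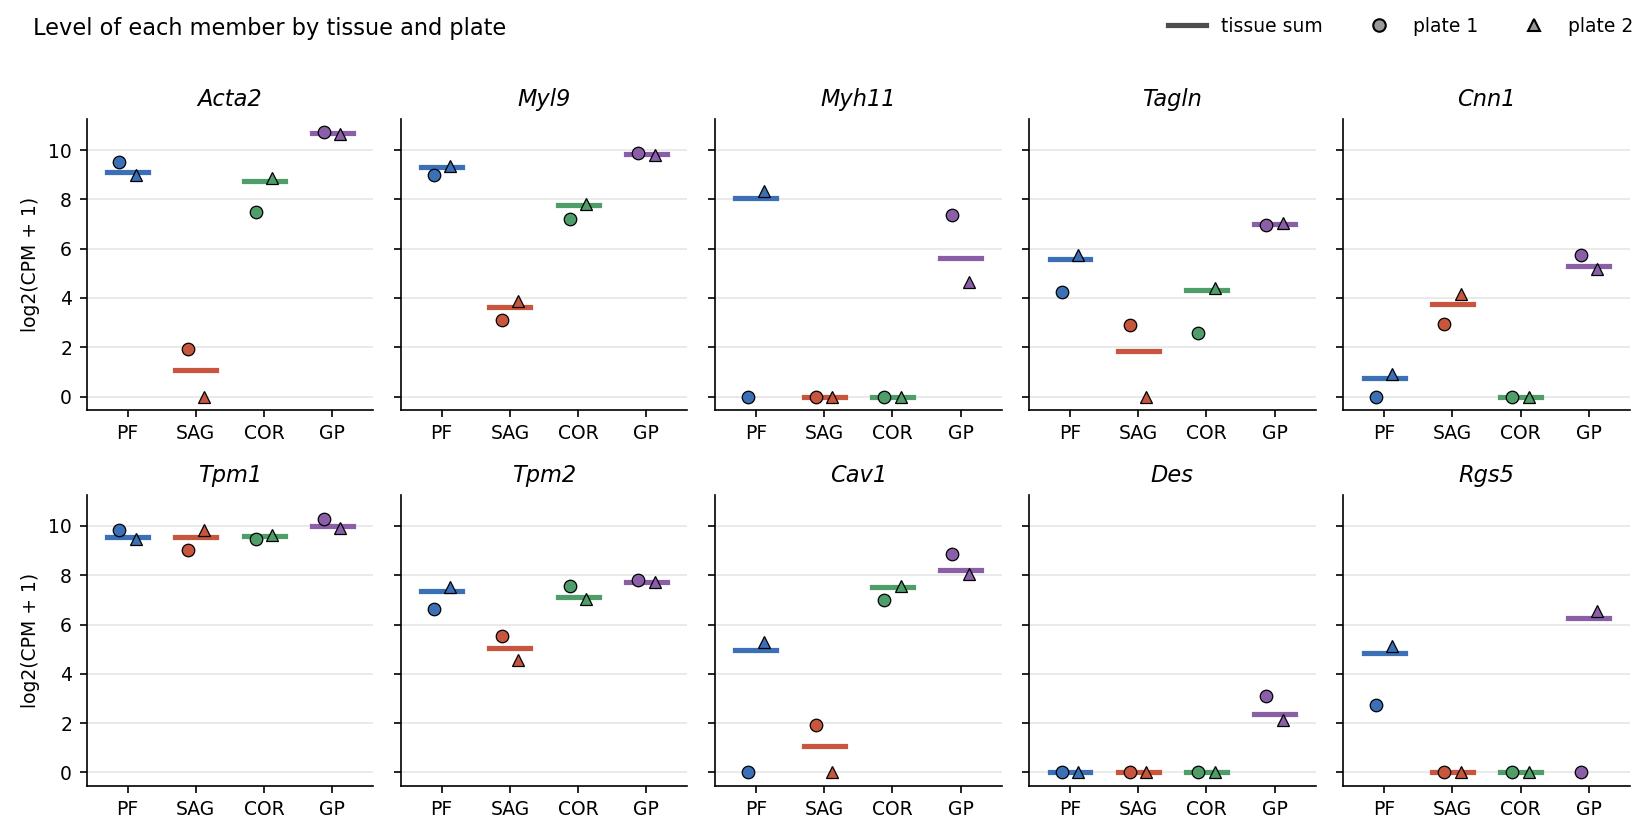
Level of each of the 10 genes as log2(CPM + 1) in the 4 tissues, with lines for the sum over a tissue, circles for plate 1 and triangles for plate 2. Tpm1 lies between 524 and 1243 CPM on all 8 plates, whereas Acta2 lies at 2.76 CPM or less on both SAG plates and at 177 CPM or more on the other 6.

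Acta2, the actin of smooth muscle, was read in 30 of 87 PF cells (34.5%, 95% exact binomial interval 24.6% to 45.4%), in 29 of 74 COR cells (39.2%, 28.04% to 51.2%), in 15 of 78 GP cells (19.2%, 11.2% to 29.7%) and in 1 of 86 SAG cells (1.16%, 0.0294% to 6.31%). The only SAG cell held 19 Acta2 reads, and SAG plate 2 held none in 56 cells, which allows a level of up to 0.290 CPM. By level the order was another one: 1704 and 1618 CPM on the GP plates, 736 and 502 on the PF plates, 177 and 461 on the COR plates and 2.76 and 0 on the SAG plates. GP thus held fewer Acta2 cells than PF or COR, at a higher level. A single GP cell with 32215 reads gave 69.3% of the GP reads of Acta2.

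Myl9, a regulatory light chain of myosin, was read in 60.9% of PF cells, 56.4% of GP cells, 45.9% of COR cells and 5.81% of SAG cells. Its level was 510 and 662 CPM on the PF plates, 947 and 895 on the GP plates, 148 and 225 on the COR plates and 7.71 and 13.6 on the SAG plates. No PF or GP plate overlapped a COR plate, and no SAG plate came near any of them. Myh11 was read in 2 PF cells and 3 GP cells, at 262 and 48.01 CPM over the tissue, and in none of the 74 COR cells or the 86 SAG cells. All 7938 PF reads of Myh11 lay on plate 2.

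Tagln, an actin-binding protein often used as an early smooth muscle marker, was read in about the same share of PF, COR and GP cells, at 14.9%, 14.9% and 15.4%, and in 2.33% of SAG cells. Its level was nevertheless 128 CPM in GP, 46.2 in PF, 18.9 in COR and 2.56 in SAG. The gap between share and level came from few cells, since 1 GP cell gave 75.4% of the GP reads. Cnn1, the calponin of smooth muscle, was read in 2 cells each of PF, SAG and GP and in no COR cell. The 2 SAG cells held 46 and 172 reads and came from different plates, and neither held an Acta2 read.

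The tropomyosins differed from each other. Tpm1 was read in 91.9% of COR cells, 86.2% of PF cells, 80.2% of SAG cells and 79.5% of GP cells, at 782, 743, 759 and 1024 CPM. Its plates overlapped among PF, SAG and COR. Tpm2 was read in 59.8% of PF, 52.7% of COR and 48.7% of GP cells but in 10.47% of SAG cells, at 165, 137, 211 and 31.8 CPM. Both genes also have products outside muscle, and reads of tropomyosins and actins can fall in stretches that family members share, so small differences among relatives such as Acta2 and Actg2 are uncertain.

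Cav1, the coat protein of caveolae, the flask-shaped pits of the plasma membrane, parted the tissues in another way. It was read in 29 of 78 GP cells (37.2%), in 19 of 74 COR cells (25.7%), in 2 of 87 PF cells (2.299%) and in 1 of 86 SAG cells (1.16%). By plate the shares were 45% and 34.5% in GP, 12.5% and 29.3% in COR, 0% and 3.77% in PF and 3.33% and 0% in SAG. PF was thus as poor in Cav1 cells as SAG, although its intervals for Acta2, Myl9 and Tpm2 overlapped those of COR. Ptrf, which builds caveolae together with Cav1, was read in 75.9% of PF cells, 89.2% of COR cells, 82.1% of GP cells and 29.1% of SAG cells, so it did not share the low PF share of Cav1. Cav2, the partner of Cav1 in the coat, was read in 12.8% of GP cells, 10.8% of COR cells, 2.299% of PF cells and 1.16% of SAG cells, in the same order of tissues as Cav1.

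Rgs5 was read in 3 PF cells and 2 GP cells, at 28.1 and 76.3 CPM over the tissue, and Des in 2 GP cells at 4.11 CPM. Neither had a read in SAG or COR. Over the 74 COR cells, 0 reads allow a level of up to 0.0936 CPM for each of Myh11, Cnn1, Des and Rgs5.

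**Figure D2:**
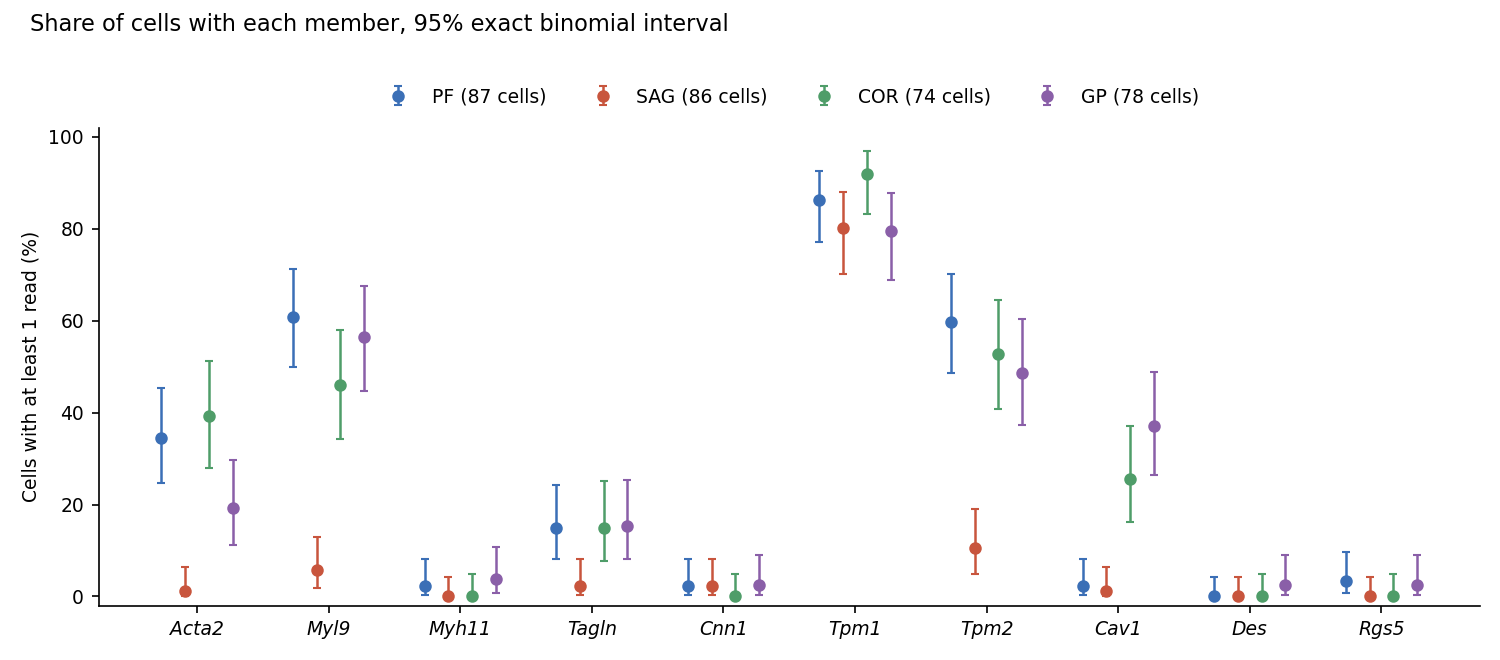
Percent of cells with at least 1 read of each of the 10 genes in PF (87 cells), SAG (86), COR (74) and GP (78), with the 95% exact binomial interval as a bar. For Acta2, Myl9 and Tpm2 only SAG lies far below the other tissues, whereas for Cav1 both SAG and PF do, at 1.16% and 2.299%.

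For Acta2 and Cav1 the order of the tissues was the same at equal depth. With all cells brought down to 100000 reads besides Rn45s, a depth that 37 cells did not reach (17 PF, 11 GP, 6 SAG and 3 COR cells), Acta2 was read in 38.03% of COR cells, 32.9% of PF cells, 19.4% of GP cells and 0% of SAG cells. Cav1 was read in 40.3% of the thinned GP cells, 26.8% of those of COR, 2.86% of those of PF and 0% of those of SAG. The only SAG cell with Acta2 was also the only one with Cav1. It held 60585 reads besides Rn45s and was among the 6 left out, so the 0% of SAG shows no loss through thinning. Among tissues with close shares the order did change, since Myl9 stood at 64.2% in GP, 58.6% in PF and 46.5% in COR. Requiring 10 reads in place of 1 gave 37.8% for Acta2 in COR, 33.3% in PF, 15.4% in GP and 1.16% in SAG.

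A ratio between tissues was called where it was at least 1 on the log2 scale, where all 4 ratios between single plates had its sign, and where the gene reached 10 CPM in either tissue. A pseudocount of 1 CPM was added. Of 60 combinations of a member and a pair of tissues, 51 reached the level, 41 had 1 sign over all plate ratios and 30 were called. Each pair shares its tissues with other pairs, and the members were chosen with these ratios in view, so the share of all genes called is printed only as the background and nothing is read from the comparison.

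Against SAG, the calls were mostly in 1 direction. Acta2 was higher in PF by 8.03 on the log2 scale, Myl9 by 5.69, Tagln by 3.73 and Tpm2 by 2.33, and Rgs5 was at least 161-fold higher, since SAG had no read. These are 5 of the 9 members that reached the level, where 16.9% of all genes tested were called higher in PF. Cnn1 was called higher in SAG, with a log2 ratio of PF to SAG of -3.01, where 13.2% of all genes were. In COR, Acta2, Myl9, Tpm2 and Cav1 were called higher than in SAG, with log2 ratios of SAG to COR of -7.69, -4.15, -2.08 and -6.46, where 18.9% of all genes were. Cnn1 was at least 135-fold higher in SAG than in COR, where 13.5% of all genes were called higher in SAG. In GP, 7 members were called higher than in SAG, where 18.3% of all genes were: Acta2, Myl9, Myh11, Tagln, Cnn1, Tpm2 and Cav1. No member was called higher in SAG than in GP, where 13.3% of all genes were. SAG plate 2 with its high Rn45s share entered all these ratios, and with that plate left out Acta2 was still lower in SAG, with 2.76 CPM on plate 1.

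Between the other tissues fewer calls were made over all genes. Myl9 was higher in PF than in COR by 1.54, and Rgs5 was at least 299.9-fold higher, where 5.43% of all genes were called higher in PF. A single PF cell gave 95.1% of the PF reads of Rgs5, and neither call of Rgs5 held without it. Cav1 was higher in COR, with a log2 ratio of PF to COR of -2.56, where 6.36% of all genes were called higher in COR. Acta2 and Tpm2 were not called between PF and COR, with log2 ratios of 0.34 and 0.26. No member was called higher in PF than in GP, where 7.67% of all genes were. Acta2, Tagln, Cnn1 and Cav1 were called higher in GP, with log2 ratios of PF to GP of -1.57, -1.45, -4.52 and -3.25, where 8.73% of all genes were. No member was called higher in COR than in GP, where 6.33% of all genes were. Acta2, Myl9, Myh11, Tagln and Cnn1 were called higher in GP than in COR, where 7.09% of all genes were, with log2 ratios of COR to GP of -1.92 for Acta2, -2.05 for Myl9 and -2.70 for Tagln. Myh11 was at least 513-fold higher in GP than in COR, and Cnn1 at least 405-fold. Tpm1 was called in none of the 6 pairs.

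A list of 18 other genes of the contractile apparatus was set beside the members. Between PF and SAG, 14 of the 18 reached the level, 2 were called higher in PF and 1 in SAG, and the median log2 ratio was 0.0044, against 0.29 over all genes tested. Actg2, the second smooth muscle actin, and Csrp1, a cytoskeletal LIM protein, were the ones higher in PF, with 43.8 against 0 CPM and 100.2 against 42.5 CPM. Flna, an actin crosslinker, was the one higher in SAG, with 272 against 579 CPM. Between COR and GP, 13 reached the level and 3 were called higher in GP, which were Actg2, Itga8 and Mustn1. In GP these were read in 6.41%, 11.5% and 11.5% of cells. Over the 5 cells described below that held Acta2 with 2 of Myh11, Rgs5 and Des, they stood at 2926, 125 and 320 CPM. Over cells with Acta2 and none of those genes they stood at 14.9, 26.7 and 2.63 CPM, and over cells without Acta2 at 0, 5.05 and 5.56. The calls of this list were not repeated without the 5 cells. Between PF and COR, 1 of 13 was called, which was Csrp1 with 100.2 against 260.4 CPM. For PF to GP, 13 reached the level, and only Smtn and Csrp1 were called, both higher in GP. For SAG to COR, 11 reached the level, and only Csrp1 was called, higher in COR. The shares of all genes called in each pair are those given above for the members. Between SAG and GP, 14 reached the level and 4 were called higher in GP, which were Actg2, Csrp1, Csrp2 and Itga8, with a median log2 ratio of SAG to GP of -0.27, against -0.23 over all genes tested. Csrp2, a relative of Csrp1, stood at 35.8 CPM in SAG against 92.3 in PF, 151 in COR and 115 in GP. Mylk was not lowest in SAG; it is the kinase of the myosin light chain and stood at 77.2 CPM in GP, 66.9 in SAG, 61.5 in PF and 38.5 in COR.

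The 75 cells with an Acta2 read were then divided by Myh11, Rgs5 and Des. With none of the 3 genes there were 69 cells, called Acta2-alone cells here: 29 of COR, 27 of PF, 12 of GP and 1 of SAG. No cell held all 3 genes, which allows a share of up to 0.923% of all cells and 4% of the Acta2 cells. Exactly 2 of the 3 were held by 5 cells, 2 of PF and 3 of GP, and 1 more PF cell held Rgs5 only. The group of 5 was formed after its values were seen, because the full set was empty, and is called the 2-gene set below. All 5 held Myh11, 4 held Rgs5 and 1 held Des. They gave 61.3% of all Acta2 reads of the 325 cells, 86.9% of those of GP and 40.9% of those of PF.

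Reads in the 2-gene set were high for most members. The cell of GP plate 1 held 8157 reads of Acta2, 2937 of Myl9, 809 of Myh11, 603 of Tagln, 256 of Cnn1, 934 of Cav1 and 37 of Des, and none of Rgs5. The strongest cell of GP plate 2 held 32215 reads of Acta2, 11711 of Myl9, 556 of Myh11, 2753 of Tagln, 824 of Cnn1, 1987 of Cav1 and 2170 of Rgs5, and none of Des. The PF plate 2 cell with most Myh11 held 4350 reads of Acta2, 5607 of Myl9, 6666 of Myh11, 356 of Tagln, 916 of Cav1 and 809 of Rgs5. All 3 cells held Acta2, Myl9, Myh11, Tagln and Cav1 and differed in Cnn1, Des and Rgs5, and in the PF cell Myh11 exceeded Acta2.

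The other PF plate 2 cell held 2445 reads of Acta2, 1626 of Myl9, 1272 of Myh11 and 532 of Tagln, but 5 of Cav1 and 9 of Rgs5. The last cell, also of GP plate 2, was of another kind: it held 13 reads of Acta2, 7 of Myl9, 2 of Myh11 and 3 of Rgs5, beside 151257 reads of Spp1 and 2728 of Ibsp, which encode bone matrix proteins, and 1992 of Col2a1, a cartilage collagen. Values are therefore also given for the 4 cells with at least 100 Acta2 reads. A further GP plate 2 cell held 80 reads of Des and 7475 of Spp1 without Acta2, Myl9 or Myh11.

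**Figure D3:**
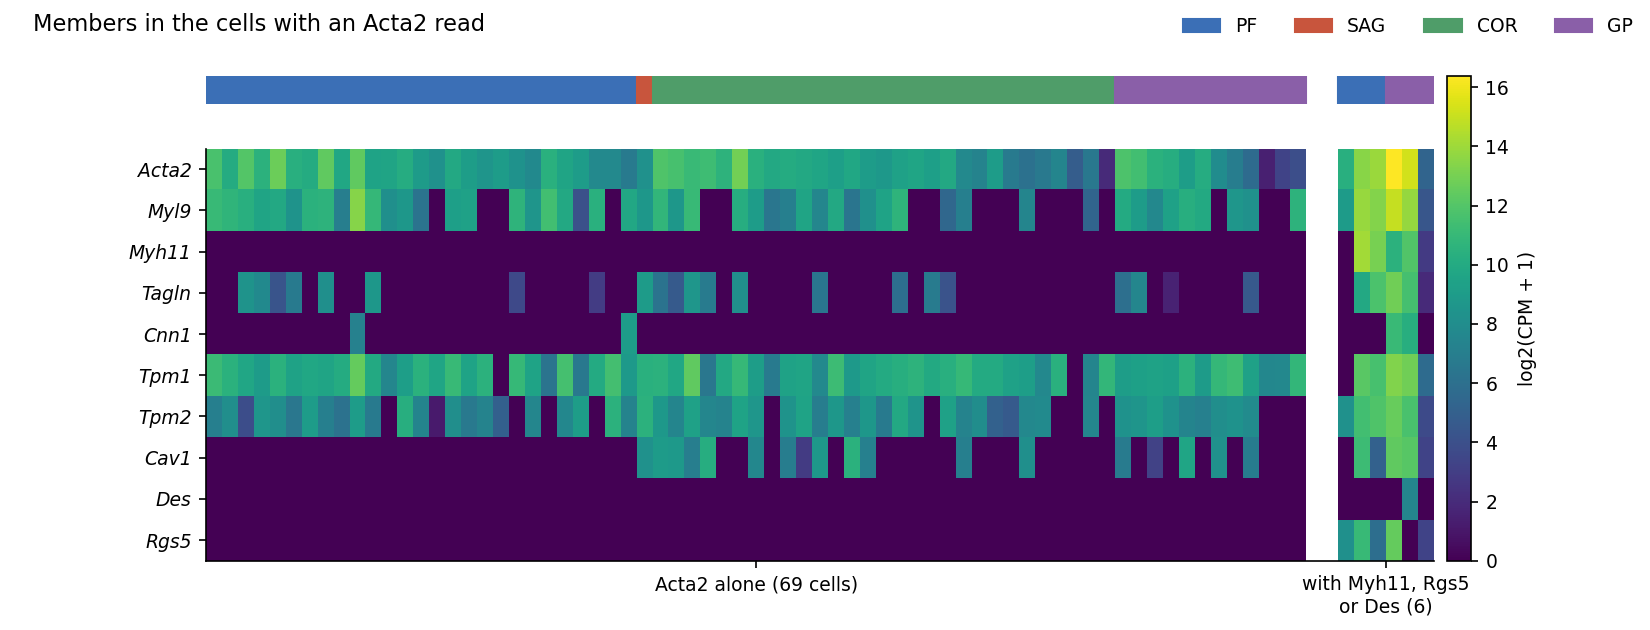
The 10 genes as log2(CPM + 1) in the 75 cells with an Acta2 read, ordered by class, tissue and Acta2 reads, with the tissue as a colored strip. The 69 Acta2-alone cells on the left hold Acta2 mostly with Tpm1, Tpm2 and Myl9, and Cav1 in none of the 27 of PF, while the 6 columns on the right are the PF cell with Rgs5 only and the 5 cells of the 2-gene set.

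Acta2-alone cells held a median of 714 CPM of Acta2, from 1.70 to 7587, and the median was 776 CPM in PF, 669 in COR and 398 in GP. In the 4 cells of the 2-gene set above 100 reads it ran from 11368 to 85895 CPM, and the fifth cell, set aside for its few Acta2 reads, stood at 37.7 CPM, inside the range of the Acta2-alone cells. Myl9 was read in 73.9% of Acta2-alone cells, Tpm2 in 82.6%, Tagln in 31.9%, Cav1 in 26.1% and Cnn1 in 2.90%. All of these but Cnn1 were read in 5 of 5 2-gene set cells. Cnn1 was read in both strong GP cells and in neither PF cell of the set.

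Genes outside the 10 were also set beside the classes. They were partly chosen for their difference in share between these same classes, so that they part them is a description only. Mcam, an adhesion molecule of vessel walls, was read in 5 of 5 2-gene set cells and in 2 of 69 Acta2-alone cells. Rgs4, a relative of Rgs5, was read in 5 of 5 and in 1 of 69, Notch3, a receptor of mural cells, in 4 of 5 and 6 of 69, and Gja4, a connexin of vessels, in 3 of 5 and 1 of 69. Actg2 was read in 5 of 5 and 6 of 69, and Myocd, the coactivator of serum response factor in smooth muscle, in 3 of 5 and 1 of 69. The cell of another kind added only 1 read of Mcam, 2 of Rgs4 and 2 of Actg2 to these counts and none of Notch3, Gja4 or Myocd, while each of the 4 other cells held Mcam, Rgs4, Notch3 and Actg2. Not all pericyte markers were there: Pdgfrb and Cspg4 were read in 4 of 5 each but also in 25 and 26 of the 69, Higd1b was read in no cell, Vtn in none of the set, and Kcnj8 and Abcc9 in 1 cell each. Esam, listed among endothelial genes, was read in 4 of 5, while Pecam1, Cdh5, Kdr, Emcn and Tek had no read in the set.

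Several genes of bone-forming cells and fibroblasts went the other way, though not all of those listed. Col1a1, a chain of type I collagen, was read in 69 of 69 Acta2-alone cells, Lum, a matrix proteoglycan, in 67, Dcn, another one, in 66, Alpl, the alkaline phosphatase of mineralizing cells, in 57, and Sp7 and Runx2, transcription factors of osteoblasts, in 42 and 35. None of the 4 strong set cells held a read of Lum, Dcn, Alpl, Sp7, Runx2 or Pdgfra, and their Col1a1 reads were 0, 0, 1 and 335. By share, other genes of these lists did not part the classes. Col3a1 was read in 69 of 69 Acta2-alone cells and 5 of 5 set cells, at medians of 16987 and 1368 CPM. Spp1 was read in 28 of 69 and 2 of 5, and Ibsp in 10 of 69 and 1 of 5. Dpt, Mfap5, Dmp1 and Phex were rare in Acta2-alone cells too, with 9, 6, 1 and 0 of 69. Myh10, a non-muscle myosin heavy chain, was read in 44 of 69 Acta2-alone cells and in 0 of 5 set cells, and Rgs3 in 50 of 69 and 1 of 5. The PF cell with Acta2 and Rgs5 only held 3441 Col1a1 reads, 1831 of Dcn and 1042 of Lum, with 49 of Vtn and 25 of Abcc9, and so had genes of both sides.

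**Figure D4:**
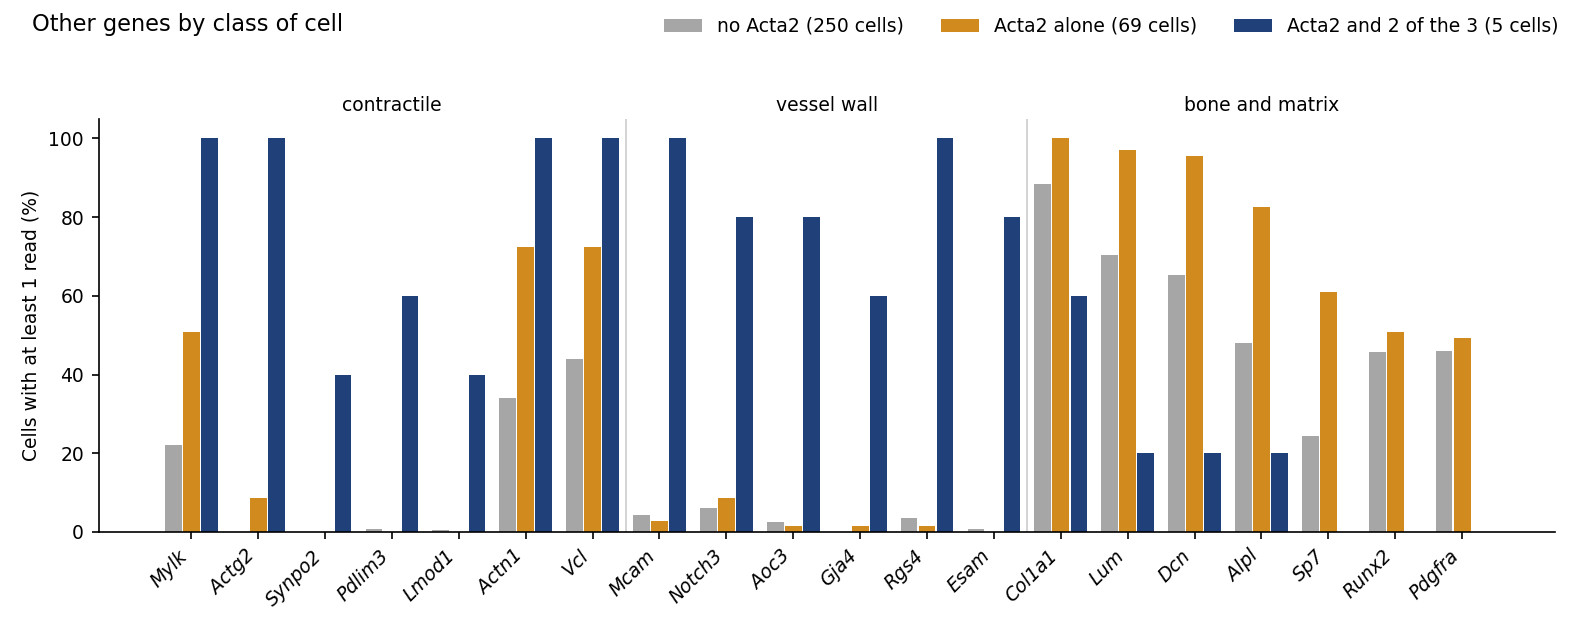
Percent of cells with at least 1 read of genes outside the 10, in 250 cells without Acta2, 69 Acta2-alone cells and the 5 cells of the 2-gene set. The vessel wall genes drawn, chosen after their values were seen, stand at 60% or more in the set and under 10% in the other classes, and Lum and Dcn are at 97.1% and 95.7% in Acta2-alone cells; the bars of the set rest on 5 cells, and 85 of the 250 cells without Acta2 are from SAG.

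The classes were compared over 7702 genes outside the members, each read in at least 10% of the 325 cells. Genes read in few cells, such as those of the 2-gene set only, could not enter. The mean of log2(CPM + 1) was lower in the 2-gene set than in Acta2-alone cells for most of them, with a median difference of -0.85. Set cells held a median of 2476 genes against 3308 in Acta2-alone cells. Of the 69 Acta2-alone cells 29 were of COR, and no set cell was. Among the genes compared, Sparcl1 led those higher in the set, with means of 10.46 against 0.80. Mcam, Rgs4 and Actg2, read in 18, 15 and 11 of the 325 cells, lay under the 10% limit and were not ranked. Jag1, a Notch ligand, stood at 8.50 against 1.54. Col4a1, a collagen of basement membranes, stood at 9.31 against 3.24, and Eln, which encodes elastin, at 9.96 against 3.92. At the other end, Col1a1 stood at 4.31 against 15.44, Serpinf1 at 0.55 against 10.98 and Lum at 2.14 against 11.68. Over the 4 cells with at least 100 Acta2 reads, the means were 11.53 for Sparcl1, 10.62 for Jag1, 11.15 for Col4a1, 11.76 for Eln, 3.09 for Col1a1 and 0 for Serpinf1 and Lum, whose reads in the set came from the fifth cell alone. These differences describe 5 cells against 69 that were divided by genes of the same libraries.

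Acta2-alone cells were next set beside cells of the same tissue without Acta2. Tagln was read in 29.6% against 5.26% in PF, 31.03% against 4.44% in COR and 33.3% against 7.94% in GP. Tpm2 was read in 85.2% against 45.6%, 82.8% against 33.3% and 75% against 41.3%, and Myl9 in 85.2% against 47.4%, 62.1% against 35.6% and 75% against 50.8%. So each of the 3 genes was read more often beside Acta2 in each of the 3 tissues, whereas Cav1 was so mainly in COR, with 41.4% against 15.6%, and less in GP, with 41.7% against 33.3%. In PF, Cav1 was read in 0 of 27 and 0 of 57 cells, and its only 2 PF cells were those of the 2-gene set. Actn1, an actin crosslinker, was read in 66.7% against 28.1% in PF, 79.3% against 44.4% in COR and 66.7% against 42.9% in GP.

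Other genes were read less often beside Acta2. Dmp1, a matrix protein of osteocytes, was read in 0% against 17.5% in PF, 3.45% against 15.6% in COR and 0% against 11.1% in GP, and Phex, an endopeptidase of osteocytes, in 0 of 27, 0 of 29 and 0 of 12 Acta2-alone cells against 7.02%, 13.3% and 14.3%. Bglap, the osteocalcin gene of mature osteoblasts, was not uniform, with 11.1% against 33.3% in PF, 31.03% against 44.4% in COR and 50% against 15.9% in GP. Sp7, which acts earlier, was read in 40.7% against 35.1% in PF, 86.2% against 42.2% in COR and 50% against 19.05% in GP. In median depth, Acta2-alone cells held 263953 reads against 382769 in PF, 417310 against 467647 in COR and 490386 against 321710 in GP, and in median genes 2613 against 2485, 3751 against 3256 and 3585.5 against 2937. After thinning to 100000 reads, Tagln was read in 30% against 4.26% in PF, 32.1% against 4.65% in COR and 27.3% against 7.55% in GP.

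A few cells carried much of the difference between tissues. With the largest cell of each tissue left out, Acta2 was no longer called higher in GP than in PF or COR, with log2 ratios of -0.31 for PF to GP and -0.37 for COR to GP. Tagln was then no longer called higher in GP than in PF, nor Cnn1 higher in GP than in any other tissue. Without the 5 cells, which is a choice made after seeing the data, Acta2 was at 221 CPM in GP in place of 1633, at 329.5 CPM in PF in place of 548 and still at 432 CPM in COR. GP, highest before, then lay below both PF and COR, with log2 ratios of 0.57 for PF to GP and 0.96 for COR to GP. Tagln was at 10.7 CPM in GP in place of 128, below PF and COR at 17.2 and 18.9. Cnn1 had no read left in GP, and Myh11 none in any tissue. Cav1 was at 202 CPM in GP, 184 in COR and 0 in PF, which then lay below SAG at 1.10 CPM. The summed level of the 10 genes was then 1813 CPM in GP, 1771 in COR, 1542 in PF and 819 in SAG, and 17 of the 60 combinations were called in place of 30. Myl9 was then not called between PF and COR, with a log2 ratio of 0.88.

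**Figure D5:**
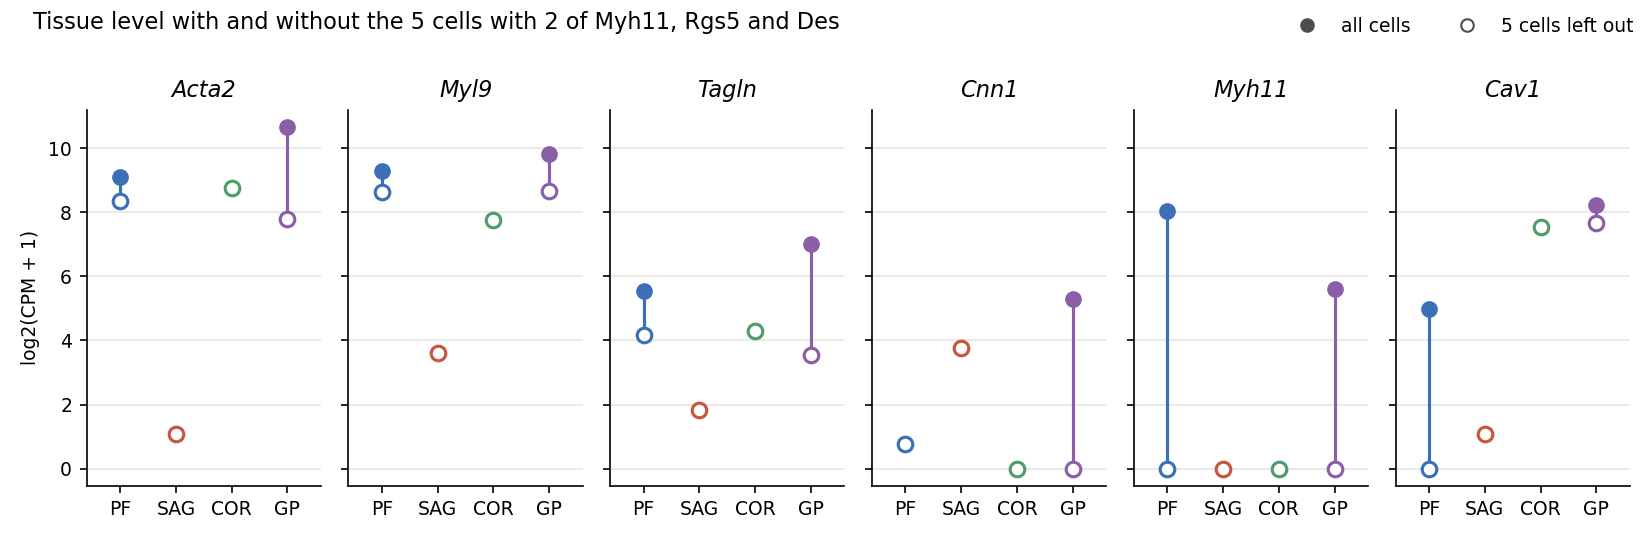
Level as log2(CPM + 1) in each tissue with all cells (filled) and without the 5 cells of the 2-gene set (open) for 6 of the genes; an open circle alone marks a tissue whose level stayed within the marker. Acta2 in GP goes from 1633 to 221 CPM, below PF and COR, while COR and SAG hold none of the 5 cells.

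By Pearson's r of log2(CPM + 1) over the 325 cells, given as a description because the cells share plates and depth, the gene outside the 10 most like Acta2 was Bok, with an r of 0.44 (0.43 without the 2-gene set), followed by Crip1 with 0.43 and Csrp1 with 0.39. Among the 10 genes themselves, Acta2 was closest to Tagln and Tpm2, with an r of 0.55 each, which was 0.46 and 0.51 without the 2-gene set. Outside the 10, Myl9 was most like Mfap4 and Il11ra1, both with 0.56, Tpm1 most like Cnn2 with 0.40, Tpm2 most like Lgals1 with 0.46, and Cav1 most like S100a6 with 0.47. Outside the 10, Tagln was most like Mylk, with 0.40, which was 0.28 without the 2-gene set. The search covered the 7708 genes read in at least 10% of cells less the members among them, and Myh11, Cnn1, Des and Rgs5 were read in too few cells for it.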

How the data were processed

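Single CD51+;CD200+ cells were sequenced by SMART-seq2, a full-length protocol without molecular identifiers. The authors deposited 8 tables of read counts per gene, 1 for each tissue and plate; STAR 2.5.3a, HTSeq, Seurat 2.3.0 and R 3.4.4 and the build mm9 are named in the submitters' processing notes. The annotation, strand setting and treatment of shared reads are not given in the sources used here, so overlapping or related genes may share reads.

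Each column was matched to its cell by title. The description of 1 SAG cell names a PF plate, and the title was followed. Cells with at least 500 genes and 10000 reads were kept (325 of 360). Counts were summed by tissue and plate and divided by the reads other than Rn45s, since plate 2 of SAG was dominated by it. Levels carry exact Poisson intervals and shares exact binomial (Clopper-Pearson) intervals at 95%, for counting error only, and the limit for 0 is 3 counts. Ratios used a pseudocount of 1 CPM. The call rule was run on simulated plate sums, with changes set only in well-read genes. Single cells were not simulated, so members with most reads in 1 cell were not covered. Per-length levels used the merged exons of the mm9 annotation GENCODE vM1. Promoters came from RefSeq, GRCm38.p6, whose coordinates were kept apart from mm9.

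The 10 genes and the lists set beside them were chosen with earlier results of these data known, and the rule for genes named in the text took the 10 members, up to 4 genes of each list by cells read and by difference between classes, the 10 highest and 10 lowest genes between classes and the 3 genes most like each member; other genes, such as the called genes of a list, were chosen after their values were seen. Of the genes that the rule takes, 1 is not reported here. The 100-read limit inside the 2-gene set and the genes drawn by class were chosen after their values were seen. Of the listed genes, Snorc and Foxf1a had no row. Scripts used Python 3.11.15, numpy 2.4.6, pandas 2.3.3, scipy 1.17.1 and matplotlib 3.10.9, and TMM factors came from edgeR 4.0.16 in R 4.3.3. Other settings of the totals, scaling, filters, depth and cells kept were also run.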

Additional observations from a re-analysis of the deposited data

Results flagged for a closer look

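Among the 35 cells below the filter, which the comparisons did not use, members still had reads: 187 of Tpm1, of which 182 lay in 1 cell, 4 of Tpm2 and 1 of Acta2, out of 832881 reads other than Rn45s. The other 7 genes had none.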

How the results depend on the processing

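The 10 genes kept the order GP, PF, COR and SAG in summed level under every setting but 1. With Rn45s in the total the sums were 3031 CPM in GP, 1797 in PF, 1304 in COR and 162 in SAG. As a mean over cells PF was at 3263 CPM and under the stricter filter at 2287 CPM. With the largest cell of each tissue left out GP was at 2346 CPM and PF at 1766 CPM. On plate 1 alone GP was at 4926, PF at 2281 and COR at 1366 CPM. Without the 5 cells of the 2-gene set, an alternative added after seeing the data, GP was at 1813 and PF at 1542 CPM, so that COR came before PF. The share of Acta2 cells moved past its interval in SAG, to 0% after thinning and 0% on plate 2, and in COR, to 56.25% on plate 1. The only SAG cell with Acta2 lay on plate 1 and was too shallow to be thinned, so it was left out of both SAG values. Cells with Acta2 alone numbered 57 to 70. Cells with the full set numbered 0 under each other setting, and 5 where 2 of the 3 genes were enough and 4 of those held 100 Acta2 reads, both chosen after seeing the data.

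Called combinations numbered 23 to 33 under the other settings and 17 without the 2-gene set, of which 16 were also called in the same direction among the 30. The called ratios that turned were all against GP. Without the 2-gene set the log2 ratio of PF to GP was 0.57 for Acta2, 0.64 for Tagln and 0.77 for Cnn1, that of COR to GP was 0.96 for Acta2 and 0.76 for Tagln, and that of SAG to GP was 3.77 for Cnn1. With the largest cell of each tissue left out, Tagln was at 0.12 for PF to GP and Cnn1 at 0.45 for SAG to GP. These alternatives leave out cells, which by itself changes the reads; no further cause was tested. No paired analysis was possible because each tissue was 1 sample and no test was run. With 1 sample per tissue, depth limits genes at 0 to the upper limits given, and differences between animals cannot be told apart from differences between tissues.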
